A study of Mus musculus with 7 samples.

Results

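The 37 genes described here are markers of microglia and of other macrophages of the nervous system, picked by symbol from the 22880 genes measured in P14 optic nerves. Of these, 10 mark resting (homeostatic) microglia, 7 are genes of the myeloid lineage, 8 serve phagocytosis and complement, 6 mark activated microglia, 3 serve sensing and antigen presentation, and 3 mark the macrophages of meninges and vessels (border macrophages). RNA was measured in 4 control mice (CT) with the genotype FASN lox/lox and in 3 mutant mice (cMU) with the genotype olig2cre FASN lox/lox, all on a C57Bl/6 background and at P14. The paper describes the controls of its developmental work as either lox/lox or lox/wt for Fasn, without saying which these 4 were. It describes the floxed mice as of mixed origin, crossed back to C57BL/6 for 3 or more generations. By the genotypes given here, the lox sites flank part of Fasn in both groups. Cre, which the Olig2 promoter drives in the oligodendrocyte (OL) lineage, is named for the mutant mice only. An effect of Cre itself and an effect of losing Fasn therefore cannot be told apart. Microglia are not part of the OL lineage, and the comparison asks how their genes stood in a nerve whose OLs lacked fatty acid synthase.

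Microglia are the resident macrophages of the central nervous system. They depend on signals through the receptor Csf1r and on the transcription factors Spi1 (PU.1) and Irf8, and in the resting state they express a characteristic set of surface receptors such as P2ry12, Cx3cr1 and Tmem119. Microglia that meet damaged myelin or dying cells can lower these genes and raise a Trem2-dependent set that includes Itgax, Clec7a, Cst7, Gpnmb, Lgals3 and Spp1, and in the early postnatal white matter some microglia carry part of this set during normal development. Border macrophages share the lineage genes with microglia but carry Mrc1, Cd163 and Pf4.

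The level of each gene is given as FPKM, a fragment count corrected for transcript length and library size, so that levels of different genes can be compared. Each fold change is the difference of the group means of log2(FPKM + 0.5), mutant minus control, from limma-trend over 13866 genes, with its standard error (SE) and a Benjamini-Hochberg adjusted p. Libraries held 27452222 to 43462575 reads, estimated from the deposited values. Fasn ran from 169 to 228 FPKM in the control mice and from 49.0 to 69.3 FPKM in the mutant mice, with a log2 fold change of -1.86 (adjusted p = 0.00312, limma-trend), so each library matched its label. Each value is a mean over the cells of the nerve, and fewer cells of a type cannot be told apart from less RNA per cell.

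The regulatory sequence of 4 members is shown because these genes turn up in the results in different ways. C1qb and C1qc are neighbours on chromosome 4 whose levels moved together over the mice, Spp1 had the largest fold change of the 37, and in Pf4 no mutant mouse overlapped a control mouse. All 4 promoters hold the word marked below, which was found upstream of 14 of the 28 members searched, so they do not stand for the others. The sequences are the 250 bases before the transcription start in RefSeq on GRCm38.p6, 5′ to 3′ on the strand of the gene, and capitals mark GGAAGT or its reverse complement ACTTCC, a word that holds the GGAA core bound by PU.1 and other ETS factors.
C1qb, chr4:136886201-136886450, minus strand: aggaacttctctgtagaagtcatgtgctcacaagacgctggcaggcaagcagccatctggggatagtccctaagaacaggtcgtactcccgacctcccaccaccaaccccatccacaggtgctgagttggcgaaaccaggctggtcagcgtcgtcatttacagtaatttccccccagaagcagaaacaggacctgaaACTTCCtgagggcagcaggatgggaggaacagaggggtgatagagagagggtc
C1qc, chr4:136892915-136893164, minus strand: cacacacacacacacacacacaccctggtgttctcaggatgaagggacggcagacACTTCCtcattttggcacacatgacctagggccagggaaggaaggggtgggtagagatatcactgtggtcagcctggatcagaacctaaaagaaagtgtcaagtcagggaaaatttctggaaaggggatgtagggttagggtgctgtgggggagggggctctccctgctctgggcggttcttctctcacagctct
Spp1, chr5:104434861-104435110, plus strand, upstream start: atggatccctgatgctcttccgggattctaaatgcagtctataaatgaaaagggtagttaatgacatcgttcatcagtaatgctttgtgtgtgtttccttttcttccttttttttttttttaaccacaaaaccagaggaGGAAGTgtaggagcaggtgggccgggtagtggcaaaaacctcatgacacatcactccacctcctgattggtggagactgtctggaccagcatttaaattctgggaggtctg
Pf4, chr5:90772185-90772434, plus strand: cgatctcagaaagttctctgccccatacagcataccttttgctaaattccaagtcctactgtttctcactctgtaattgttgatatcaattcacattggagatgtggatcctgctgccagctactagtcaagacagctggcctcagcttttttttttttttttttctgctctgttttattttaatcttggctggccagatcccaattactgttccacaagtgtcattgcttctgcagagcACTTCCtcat

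The table of promoters matched 28 of the 37 members, with 34 starts. Searched on both strands, GGAAGT was present upstream of 14 of the 28 members, against 22.2% of all 27025 genes with a promoter in the table. The longer GAGGAAG, which overlaps GGAAGT where a T follows it, was present upstream of 9 members against 12% of all genes. GAGGAAGT, which contains both of the shorter words, was present upstream of 3 members (C1qc, Pf4 and Spp1) against 2.79% of all genes. TATAAA was present upstream of 6 members against 14.3% of all genes, and the AP-1 word TGACTCA upstream of 2 against 5.16%. These are matches of letters and not measured binding.

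All 37 genes were detected and passed the filter on low values, at levels spanning 2 orders of magnitude on the plot of FPKM by gene. C1qb was the most abundant in the control mice, at 63.6 ± 8.66 FPKM (SD, n = 4), above 94.0% of all genes in the table. Ctss, a lysosomal protease, followed at 62.9 ± 6.98 FPKM and C1qa at 58.4 ± 9.75 FPKM, and these 3 levels differed by less than their SDs. Laptm5, a lysosomal membrane protein of haematopoietic cells, stood at 55.5 ± 3.10 FPKM. At the other end, 3 activation genes were the lowest of the 37. Clec7a, a receptor for fungal glucans, had 1.14 ± 0.461 FPKM, Cst7, an inhibitor of cathepsins, had 0.817 ± 0.543 FPKM and Itgax, the integrin CD11c, had 0.620 ± 0.131 FPKM. Cst7 rested on 7 to 46 reads a library and Clec7a on 11 to 50, so that their values carry a larger counting error than those of the other members.

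**Figure D1:**
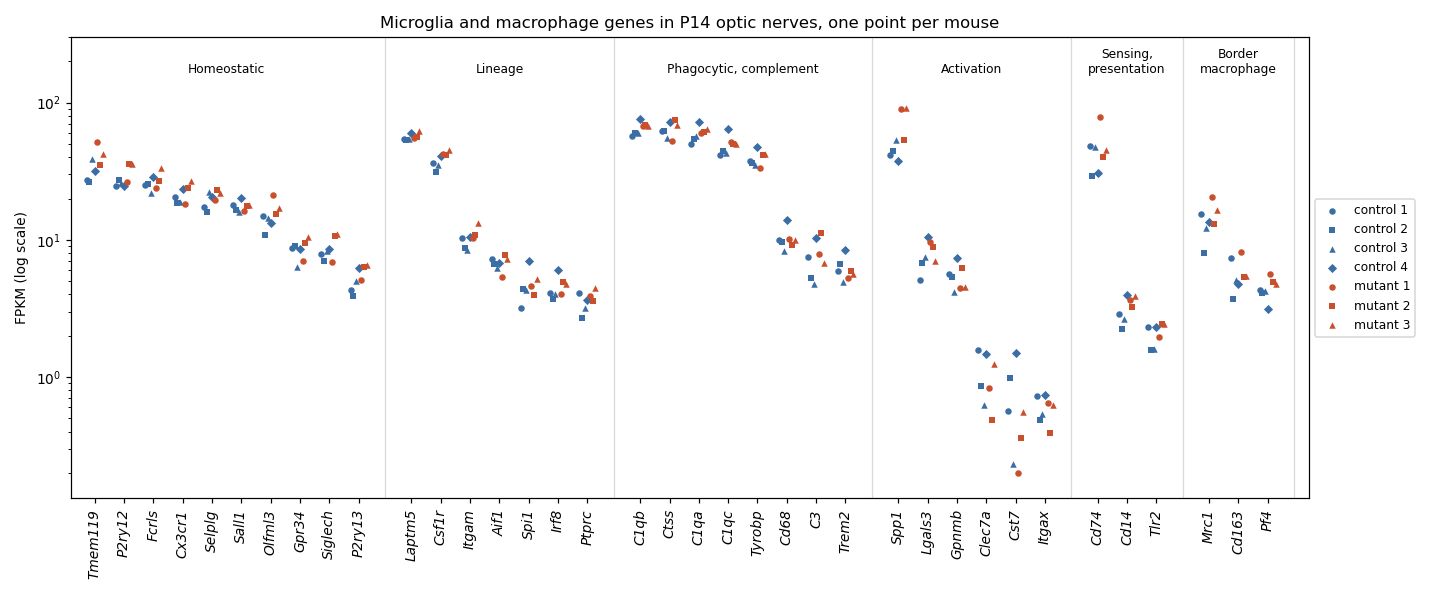
FPKM (log scale) of the 37 genes, 1 point per mouse, blue for the 4 control mice and red for the 3 mutant mice, with the genes of each role group in order of their control mean. The groups of mice overlap for all genes except Olfml3, Csf1r and Pf4, and Itgax, Clec7a and Cst7 lie lowest.

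No member passed an adjusted p of 0.05 in either direction by limma-trend, against 1.26% of the 13866 genes that passed as higher and 1.36% as lower. At an unadjusted p under 0.05, 6 of the 37 (16.2%) were higher in the mutant mice and 0 were lower, against 15.9% and 8.5% of all genes. The 6 were P2ry12, Tmem119, Olfml3, Csf1r, Spp1 and Pf4, a share close to that of all genes. In 3 of them, Olfml3, Csf1r and Pf4, every mutant mouse lay above every control mouse, which is 8.11% of the members against 12.9% of all genes, and in 0 members every mutant mouse lay below, against 8.26% of all genes. The fold change was positive in 30 of the 37 (81.1%), with a median of 0.17, whereas 60.1% of all genes were positive, with a median of 0.05. Scaling the libraries by 3 other measures moved the median of all genes to between -0.03 and -0.02 and that of the members to 0.08 or 0.09. Positive estimates were then found in 23 or 24 of the 37 members and in 43.2% to 45.2% of all genes. The calls over all genes turned from 48.2% higher to between 28.4% and 29.2% higher.

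The precision of these values limits what could be seen. The 95% interval of the fold change reached a median of 0.35 to either side of the estimate on the log2 scale over the 37 genes, and lay within -1 and 1 for 34 of them and within -0.5 and 0.5 for 17. The labels do not say that equal replicate numbers are pairs of mice. They were taken as pairs because their deviations correlated across genes, at 0.168 to 0.409. However, control 4 and mutant 1 correlated at 0.205, above the 0.168 of control 1 and mutant 1. The pairing was thus chosen from the same values that the blocked fit tests, so the blocked adjusted p may be too small. A fit blocked on the replicate number, in which control 4 has no partner and drops out of the difference, called 4 members (10.8%) as higher and 0 as lower, against 6.42% and 1.94% of all genes. The 4 were Olfml3, Csf1r, Spp1 and Mrc1, and their blocked values stand with each gene.

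**Figure D2:**
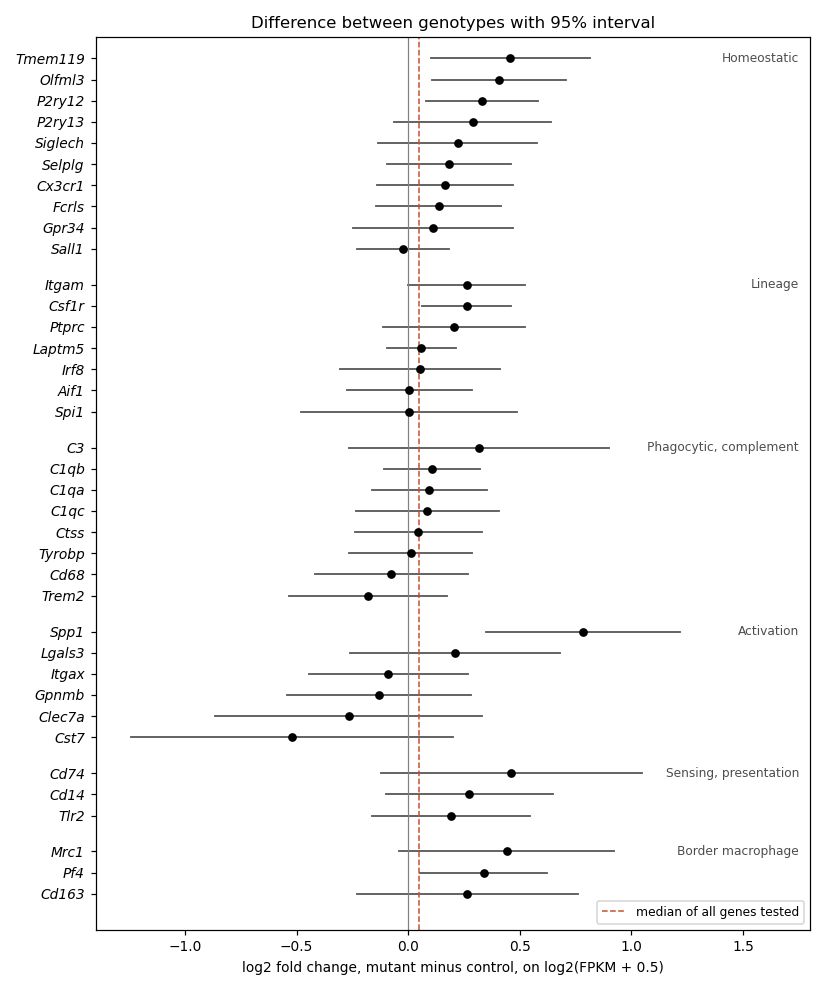
Difference between genotypes on log2(FPKM + 0.5), mutant minus control, for the 37 genes by role group, with 95% intervals as bars (4 control and 3 mutant mice). The dashed line marks the median of all genes tested (0.05). The intervals of 31 genes contain 0, and those of Tmem119, Olfml3, P2ry12, Csf1r, Spp1 and Pf4 lie above it.

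The 10 homeostatic genes had a median log2 fold change of 0.20, with 9 positive and 0 past the adjusted threshold, of 0.12 or 0.13 with the 3 other scalings and of 0.14 (without mutant 3) to 0.30 (without mutant 1) with 1 mouse left out. P2ry12 is the ADP receptor by which microglial processes find sites of injury. Its level in the control mice 1 to 4 was 24.5, 27.4, 26.1 and 24.5 FPKM, and in the mutant mice 1 to 3 it was 26.3, 35.7 and 36.0 FPKM. Mutants 2 and 3 lay above all controls and mutant 1 lay among them. The log2 fold change was 0.33 (SE 0.11, adjusted p = 0.124, limma-trend). Without mutant 1 it was 0.476 (adjusted p = 0.0355), the only call of P2ry12 in 15 alternatives. Over these the estimate ran from 0.245 to 0.476 and its adjusted p from 0.0355 to 0.288.

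Tmem119 is a membrane protein found in microglia and in few other cells. It measured 27.2, 26.3, 38.7 and 31.7 FPKM in the control mice and 51.3, 34.8 and 42.2 FPKM in the mutant mice. Control 3 reached above mutant 2, and mutant 1 was the highest. The log2 fold change was 0.46 (SE 0.16, adjusted p = 0.131). The chemokine receptor Cx3cr1, which receives fractalkine from neurons, measured 20.4, 18.6, 18.9 and 23.5 FPKM in the control mice and 18.2, 24.0 and 27.0 FPKM in the mutant mice. The lowest value of all was that of mutant 1 and the highest that of mutant 3, with a log2 fold change of 0.17 (SE 0.13, adjusted p = 0.480). The mutant with the most Tmem119 was the one with the least Cx3cr1, and the ratio of Tmem119 to Cx3cr1 in FPKM was 2.81 in mutant 1 and 1.33 to 2.05 in the other 6 mice. The ratio of P2ry12 to Cx3cr1 ran from 1.04 to 1.49 over the 7 mice, with overlapping groups.

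Olfml3, a secreted matrix protein made by microglia, was the homeostatic gene whose groups did not overlap. Its level was 15.0, 10.9, 14.4 and 13.3 FPKM in the control mice and 21.1, 15.6 and 17.0 FPKM in the mutant mice. Mutant 2 lay just above control 1. The log2 fold change was 0.40 (SE 0.13, adjusted p = 0.118), and 0.41 (adjusted p = 0.0405) with the replicate block. Olfml3 was lowest in control 2 and highest in mutant 1, followed by mutant 3. The score of the fibroblast markers, described below, had the same lowest and highest mice (-0.40, 1.09 and 0.35). The order differed for controls 3 and 4 (scores -0.03 and 0.09) and for control 1 and mutant 2 (0.34 and 0.28). The part of cells other than microglia in Olfml3 was not tested. Sall1, a transcription factor that maintains microglial identity, was the homeostatic gene with a negative value. It measured 18.1, 16.4, 15.8 and 20.03 FPKM in the control mice and 16.2, 17.6 and 17.9 FPKM in the mutant mice. All mutant values lay inside the control range, with a log2 fold change of -0.02 (95% interval -0.23 to 0.18), which turned to 0.04 with the block. The other 5 homeostatic genes were P2ry13 (a receptor for ADP), Siglech (a sialic acid lectin), Selplg (a ligand of selectins), Fcrls (an Fc receptor-like protein) and Gpr34 (a receptor for lysophosphatidylserine). Their fold changes ran from 0.11 for Gpr34 to 0.29 for P2ry13, their adjusted p from 0.286 to 0.697, and their groups overlapped. Mutant 3 had the highest value of the 7 mice in 6 of the 10 homeostatic genes.

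The 7 lineage genes had a median log2 fold change of 0.06, where that of all genes was 0.05. With each of the 3 other scalings it was between -0.03 and -0.02, without control 4 or with the block it was 0.19, and without mutant 1 it was 0.15. Csf1r is the receptor for Csf1 and Il34, on which the survival of microglia depends. It measured 36.3, 31.2, 35.1 and 40.7 FPKM in the control mice and 42.3, 41.3 and 45.1 FPKM in the mutant mice. The groups did not overlap, although mutant 2 exceeded control 4 by less than the SD of either group (3.93 and 2.00 FPKM). The log2 fold change was 0.26 (SE 0.09, adjusted p = 0.126), and 0.32 (adjusted p = 0.0449) with the block.

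Spi1, the transcription factor PU.1, measured 3.21, 4.41, 4.31 and 7.04 FPKM in the control mice and 4.62, 3.98 and 5.21 FPKM in the mutant mice. Control 4 lay highest and control 1 lowest, with the mutants between them, and the 95% interval of the fold change ran from -0.48 to 0.49. Aif1, which encodes the protein IBA1 used to stain microglia, measured 7.19, 6.61, 6.26 and 6.76 FPKM in the control mice and 5.38, 7.76 and 7.25 FPKM in the mutant mice. Its mutants took both the lowest and the highest place, and the 95% interval ran from -0.27 to 0.28. The 95% intervals of Irf8 (-0.31 to 0.41) and of Laptm5 (-0.10 to 0.21) also contained 0. The phosphatase Ptprc (CD45) had a log2 fold change of 0.21 and the integrin Itgam (CD11b) of 0.26, with adjusted p of 0.398 and 0.206. Aif1 and Csf1r, both markers of the same cells, thus had point estimates of 0.00 and 0.26 with intervals that overlapped between 0.06 and 0.28.

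**Figure D3:**
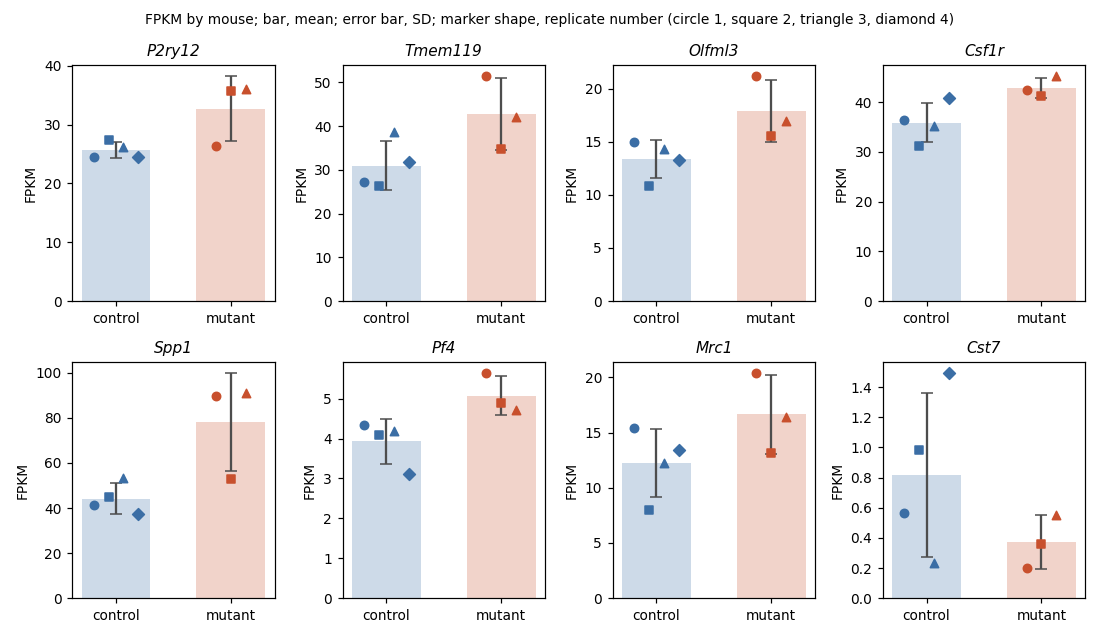
FPKM of 8 genes by mouse (points, with the shape giving the replicate number), with the mean as a bar and the SD as an error bar (4 control and 3 mutant mice). Shown are the 6 members with an unadjusted p under 0.05, Mrc1, which was called with the replicate block, and Cst7, which had the largest negative fold change. Spp1 in mutant 2 lies beside control 3.

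The 8 genes of phagocytosis and complement had a median log2 fold change of 0.07, and between -0.02 and -0.01 with the 3 other scalings. Without control 4 or with the block it was 0.16, and without mutant 1 it was 0.11. C1qa, C1qb and C1qc encode the chains of C1q, the first component of the classical complement pathway, which in the nervous system comes from microglia, and the 3 genes lie side by side on chromosome 4 between 136880129 and 136898803 (GRCm38). C1qa measured 50.3, 54.1, 56.7 and 72.5 FPKM in the control mice and 59.8, 61.1 and 64.5 FPKM in the mutant mice. C1qb measured 57.3, 60.5, 60.2 and 76.4 FPKM in the control mice and 67.9, 68.4 and 68.1 FPKM in the mutant mice. C1qc measured 41.2, 44.6, 42.9 and 64.7 FPKM in the control mice and 51.5, 50.1 and 49.7 FPKM in the mutant mice. In each of the 3 genes the mutants lay above controls 1 to 3 and below control 4.

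The log2 fold changes of the C1q genes were 0.09, 0.11 and 0.09, with adjusted p of 0.643, 0.519 and 0.750. Without control 4 they were 0.20, 0.20 and 0.23 (adjusted p = 0.159, 0.126 and 0.108), and the block, in which control 4 drops out, gave the same estimates (adjusted p = 0.112, 0.117 and 0.0918). Over the 7 mice the ratio of C1qa to C1qb stayed between 0.877 and 0.949 and that of C1qc to C1qb between 0.713 and 0.847, the highest being that of control 4.

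Trem2, a lipid-sensing receptor of microglia, and its signalling partner Tyrobp showed no difference larger than the spread between mice. Trem2 measured 5.93, 6.68, 4.96 and 8.49 FPKM in the control mice and 5.23, 5.96 and 5.60 FPKM in the mutant mice, all mutants inside the control range. Its log2 fold change was -0.18 (95% interval -0.53 to 0.17). Tyrobp measured 37.3, 36.0, 34.8 and 47.2 FPKM in the control mice and 33.4, 41.3 and 42.5 FPKM in the mutant mice, with a log2 fold change of 0.01 (95% interval -0.26 to 0.29). The ratio of Trem2 to Tyrobp was 0.167 ± 0.0199 (SD, n = 4) in the control mice and 0.144 ± 0.0126 (n = 3) in the mutant mice, with overlapping ranges. C3, the central protein of complement, had the largest estimate of the group. It measured 7.54, 5.24, 4.72 and 10.3 FPKM in the control mice and 7.87, 11.1 and 6.73 FPKM in the mutant mice, with a 95% interval of the log2 fold change from -0.27 to 0.90. The lysosomal glycoprotein Cd68 had a log2 fold change of -0.08 (adjusted p = 0.797) and Ctss of 0.05 (adjusted p = 0.860).

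Control 4 stood apart within the controls in these genes. It had the highest value of the 7 mice in 14 of the 37 members, among them 6 of the 8 genes of phagocytosis and complement and 4 of the 6 activation genes. The score of the phagocytosis and complement genes, the mean of their log2(FPKM + 0.5) relative to the control mean, was 0.37 in control 4, between -0.21 and -0.07 in the other controls and between -0.03 and 0.13 in the mutants. Control 2 had the lowest value in 13 members, 4 of them homeostatic, 4 lineage, 3 of sensing and presentation and 2 of border macrophages.

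The 6 activation genes did not move together, with 2 positive and 4 negative estimates and a median log2 fold change of -0.11. Without Itgax and Cst7, which a minimum of 1 FPKM removes, the median was 0.04, and with 1 mouse left out it ran from -0.19 (without control 3) to -0.01 (without mutant 2). Spp1, which encodes osteopontin, a secreted ligand of integrins that other cell types make as well, had the largest fold change of the 37. It measured 41.4, 44.7, 53.3 and 37.5 FPKM in the control mice and 89.9, 53.0 and 91.2 FPKM in the mutant mice. Mutants 1 and 3 lay far above the controls, and mutant 2 lay just below control 3. The mutant mean was 176% of the control mean, with a log2 fold change of 0.78 (SE 0.19, adjusted p = 0.0656), and 0.71 (adjusted p = 0.0372) with the block. Without mutant 2 it was 1.04 (adjusted p = 0.0205). Over the alternatives examined the estimate ran from 0.65 to 1.04 and its adjusted p from 0.0205 to 0.172.

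Among the activation genes other than Spp1, Lgals3 had a positive estimate and Cst7, Clec7a, Itgax and Gpnmb had negative ones. The intervals of all of these contained 0. Cst7 measured 0.562, 0.982, 0.233 and 1.49 FPKM in the control mice and 0.199, 0.359 and 0.554 FPKM in the mutant mice. The controls alone spanned more than the whole mutant range, and the log2 fold change was -0.52 (95% interval -1.24 to 0.20). It was -0.81 with a pseudocount of 0.1, -0.77 without control 3 and -0.29 without control 4, and the mutant mean was 45.4% of the control mean in FPKM. Clec7a measured 1.57, 0.866, 0.626 and 1.48 FPKM in the control mice and 0.837, 0.481 and 1.24 FPKM in the mutant mice, with a log2 fold change of -0.27 (95% interval -0.86 to 0.33). Itgax measured 0.725, 0.484, 0.533 and 0.739 FPKM in the control mice and 0.650, 0.392 and 0.621 FPKM in the mutant mice, with a log2 fold change of -0.09 (95% interval -0.45 to 0.27). At these levels the added 0.5 FPKM shrinks the differences, so that the intervals do not bound the change in FPKM itself, and with a pseudocount of 0.1 the estimate of Clec7a was -0.37 and that of Itgax -0.145.

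Gpnmb, a glycoprotein of phagocytes, measured 5.65, 5.36, 4.16 and 7.36 FPKM in the control mice and 4.43, 6.26 and 4.50 FPKM in the mutant mice. Its log2 fold change was -0.13 (95% interval -0.54 to 0.28). Lgals3, a lectin that binds galactosides, measured 5.10, 6.74, 7.53 and 10.5 FPKM in the control mice and 9.66, 8.83 and 7.06 FPKM in the mutant mice, with a log2 fold change of 0.21 (95% interval -0.26 to 0.68). The summed FPKM of Itgax, Clec7a and Cst7 was 3.37% ± 1.28 (SD, n = 4) of that of Cx3cr1, P2ry12 and Tmem119 in the control mice and 1.79% ± 0.496 (n = 3) in the mutant mice. The shares were 3.96%, 3.23%, 1.66% and 4.65% in the controls and 1.76%, 1.31% and 2.30% in the mutants, so that control 3 lay among the mutants. This share was not a planned result. It leaves out Gpnmb, with a negative estimate, and Spp1 (0.78) and Lgals3 (0.21), with positive ones. The genes it is divided by, Cx3cr1, P2ry12 and Tmem119, had positive estimates of 0.17, 0.33 and 0.46. A lower share therefore does not by itself mean less of the activation genes. Of 18 other genes of activated microglia, 2 passed the adjusted threshold, both higher, against 1.26% of all genes that passed as higher. Of the 18 estimates 16 were positive and 2 negative, with a median of 0.17, where that of all genes was 0.05. Their score ran from 0.18 to 0.28 in the mutant mice and from -0.10 to 0.08 in the control mice. The lysosomal tetraspanin Cd63 had a log2 fold change of 0.36 (adjusted p = 0.0234) and the chemokine Ccl6 of 0.51 (adjusted p = 0.0327). Cd63 is also abundant in astrocytes and other cells. Several of the 18 stood far above the members in the control mice, with Apoe at 2642, Ctsd at 441 and Cd9 at 418 FPKM. C1qb, the most abundant member, stood at 63.6 FPKM. The score of the 18 is thus not restricted to microglia, and the part of other cells in it was not tested.

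**Figure D4:**
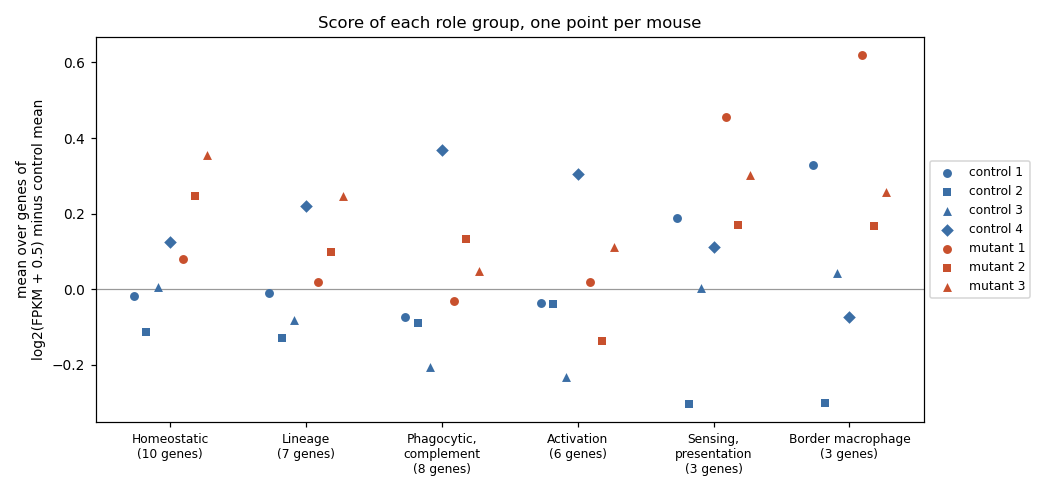
Score of each role group by mouse, the mean over its genes of log2(FPKM + 0.5) relative to the control mean, blue for control and red for mutant mice. Control 4 is highest in the phagocytosis and complement group (0.37) and the activation group (0.31), mutant 3 in the homeostatic (0.35) and lineage (0.25) groups, and mutant 1 in the last 2 groups (0.46 and 0.62).

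The 3 genes of sensing and presentation had positive estimates with intervals that contained 0. Cd14, the co-receptor for bacterial lipopolysaccharide, measured 2.89, 2.22, 2.63 and 3.98 FPKM in the control mice and 3.67, 3.23 and 3.87 FPKM in the mutant mice (log2 fold change 0.27, adjusted p = 0.337). Tlr2, a receptor for bacterial lipoproteins, measured 2.30, 1.56, 1.59 and 2.33 FPKM in the control mice and 1.96, 2.43 and 2.43 FPKM in the mutant mice (log2 fold change 0.19, adjusted p = 0.479). Control 4 lay above all mutants for Cd14 and among them for Tlr2.

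Cd74, the invariant chain of MHC class II, measured 48.0, 29.1, 47.7 and 30.6 FPKM in the control mice and 78.4, 40.1 and 45.2 FPKM in the mutant mice. Its estimate of 0.46 (SE 0.26, adjusted p = 0.305) rested on mutant 1, without which it was 0.17. Of the MHC class II genes themselves, 5 of 6 were tested and 0 passed, and the most abundant, H2-Aa, ran from 21.7 to 36.9 FPKM in the control mice and from 27.2 to 58.1 FPKM in the mutant mice. The score of these 5 genes was 0.87 in mutant 1 and between -0.30 and 0.26 in the other 6 mice.

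The 3 border macrophage genes had a median log2 fold change of 0.34, and of 0.26 or 0.27 with the 3 other scalings. Mrc1, the mannose receptor CD206, measured 15.4, 8.02, 12.2 and 13.4 FPKM in the control mice and 20.4, 13.1 and 16.4 FPKM in the mutant mice. Its log2 fold change was 0.44 (SE 0.21, adjusted p = 0.239), and 0.50 (SE 0.09, adjusted p = 0.0301) with the block. Each mutant was higher than the control of the same number, a pairing that was assumed, and controls 1 and 4 lay above mutant 2. Cd163, the receptor for haemoglobin bound to haptoglobin, measured 7.42, 3.70, 5.12 and 4.72 FPKM in the control mice and 8.20, 5.39 and 5.42 FPKM in the mutant mice (log2 fold change 0.26, adjusted p = 0.487). Pf4, a chemokine of platelets that border macrophages also express, measured 4.33, 4.08, 4.20 and 3.11 FPKM in the control mice and 5.63, 4.89 and 4.72 FPKM in the mutant mice. Its groups did not overlap, with a log2 fold change of 0.34 (SE 0.13, adjusted p = 0.147).

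Mutant 1 had the highest value of the 7 mice in all 3 border genes, and control 2 the lowest in 2 of them. Their score was 0.62 in mutant 1, 0.17 and 0.26 in mutants 2 and 3, and between -0.30 and 0.33 in the controls. Of 12 other border macrophage genes, 11 were tested and 0 passed, with 11 positive estimates and a median of 0.28. The most abundant of them, the scavenger receptor Stab1, ran from 22.3 to 29.9 FPKM in the control mice and from 27.2 to 38.6 FPKM in the mutant mice. The score of the other border genes was 0.70 in mutant 1, 0.08 and 0.11 in mutants 2 and 3, and between -0.30 and 0.25 in the controls.

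Markers of the meninges followed the same mice. The score of 8 fibroblast markers was 1.09 in mutant 1, 0.28 and 0.35 in mutants 2 and 3, and -0.40 in control 2, with the other controls between -0.03 and 0.34, and 0 of the 8 passed the adjusted threshold. The most abundant, the collagen gene Col1a2, ran from 221 to 413 FPKM in the control mice and from 356 to 747 FPKM in the mutant mice. The summed FPKM of these 8 markers ran from 728 to 1323 in the control mice and from 1212 to 2247 in the mutant mice. The 4 mast cell markers had a score of 2.23 in mutant 1 and between -0.23 and 0.42 in the other 6 mice, and each of the 4 was above 0 in every mouse. The part of these cells in the border, MHC class II, Cd74 and Olfml3 values was not tested.

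**Figure D5:**
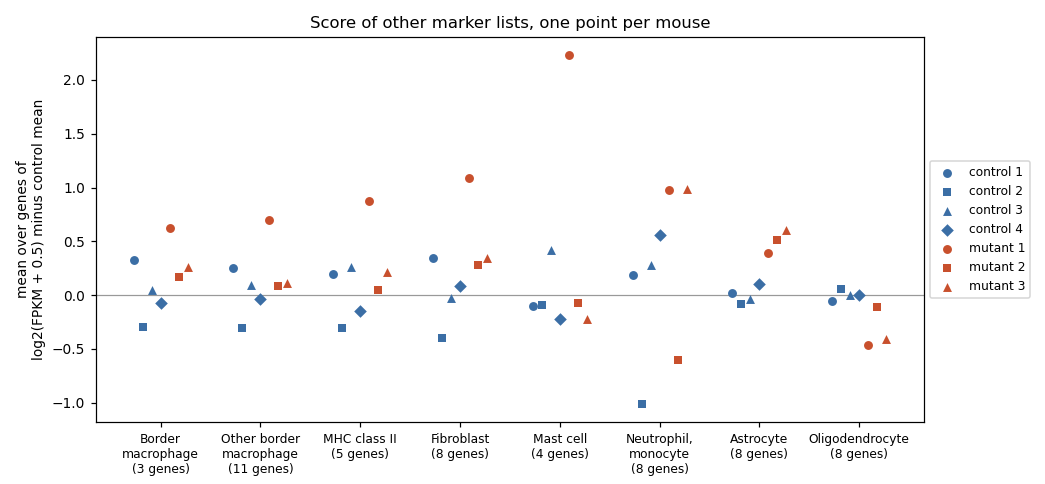
Score of the border macrophage genes beside other marker lists by mouse, the mean over the genes of log2(FPKM + 0.5) relative to the control mean, blue for control and red for mutant mice. Mutant 1 lies highest in the border macrophage, MHC class II, fibroblast and mast cell lists, control 2 lowest in the border macrophage and fibroblast lists, and the astrocyte scores of the 3 mutants (0.39 to 0.60) all lie above those of the controls (-0.08 to 0.10).

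Other genes of the microglial pathways gave few calls, although most of their estimates were positive. Of 24 other homeostatic genes, 22 were tested and 0 passed, with 21 positive estimates and a median of 0.21. The most abundant, the lysosomal protease Lgmn, ran from 220 to 269 FPKM in the control mice and from 207 to 225 FPKM in the mutant mice. Lgmn was the 1 gene of this list with a negative estimate (log2 fold change -0.18, adjusted p = 0.184, limma-trend). Of 13 tested genes of complement and its regulators and receptors, 0 passed, with 12 positive estimates and a median of 0.32. In 5 of the 13 every mutant mouse lay above every control mouse, against 12.9% of all genes. C4b, the most abundant, ran from 93.6 to 135 FPKM in the control mice and from 150 to 177 FPKM in the mutant mice (log2 fold change 0.46, adjusted p = 0.0773, limma-trend). C4b is also made by astrocytes and meningeal cells. Of 5 tested Fc receptor genes 0 passed, with 5 positive estimates and a median of 0.26. The most abundant, Fcgr2b, ran from 22.5 to 29.4 FPKM in the control mice and from 29.6 to 41.9 FPKM in the mutant mice.

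The ligands that reach microglia from their neighbours, and their receptors, gave 0 calls among 12 tested genes. All 12 estimates were positive, with a median of 0.28. Csf1 and Il34, the ligands of Csf1r, had log2 fold changes of 0.09 and 0.44 (adjusted p = 0.539 and 0.111), Cx3cl1, the ligand of Cx3cr1, 0.25 (adjusted p = 0.397), and Cd200, a neuronal signal that restrains microglia, 0.32 (adjusted p = 0.0644). These 4 genes were named after their values had been seen, and Cd47 was the most abundant of the list at 60.0 to 68.4 FPKM in the control mice and 60.6 to 69.9 FPKM in the mutant mice. Among 15 cytokine and inflammatory genes, 10 were tested and 1 passed. Il18, a cytokine of the inflammasome pathway, ran from 15.5 to 20.7 FPKM in the control mice and from 26.5 to 29.4 FPKM in the mutant mice (log2 fold change 0.64, adjusted p = 0.0214). Tnf reached at most 0.164 FPKM and Il6 at most 0.0600 FPKM in the 7 mice, and neither passed the filter.

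Some markers of other cells of the nerve passed the adjusted threshold. Of 8 astrocyte markers 3 passed as higher, against 1.26% of all genes. These were Aldh1l1 (0.55), Gja1 (0.64) and Slc1a2 (0.67), with adjusted p of 0.0214, 0.0214 and 0.0437 (limma-trend). All 8 estimates were positive, and in 7 every mutant mouse lay above every control mouse, against 12.9% of all genes. Of 6 markers of OL progenitors 2 passed as lower, Gpr17 (-0.55) and Cspg4 (-0.49), against 1.36% of all genes. Of 8 OL markers 2 passed as lower, Mag (-0.45) and Cnp (-0.46). All estimates of these 2 lists were negative. Every mutant mouse lay below every control mouse in 4 of the 6 and in 5 of the 8, against 8.26% of all genes. The part of these other cells in the values of the 37 genes, whose libraries are all scaled to the same total, was not tested. Blood cell markers overlapped between the genotypes. The summed FPKM of 10 neutrophil and monocyte markers ran from 5.64 to 35.4 in the control mice and from 9.34 to 49.99 in the mutant mice, and that of 10 T, B and NK cell markers from 2.66 to 3.81 and from 2.67 to 7.14, with Cd8a and Gzma at 0 in some libraries. Of these 2 lists 0 genes passed, and their most abundant members were S100a9 (1.58 to 15.1 FPKM in the control mice and 2.43 to 18.9 FPKM in the mutant mice) and Cd79a (1.17 to 1.56 and 1.30 to 4.26 FPKM). The haemoglobin gene Hbb-bs ran from 1363 to 5915 FPKM in the control mice, highest in control 2, and from 1748 to 2618 FPKM in the mutant mice. Muscle markers were high in mutant 2 (score 3.63, against -0.31 to 0.51 in the other 6 mice). The lists of red blood cells, muscle, endothelium, pericytes, neurons and proliferation also gave 0 calls. All 8 endothelial estimates were positive (median 0.28), with scores of 0.25 to 0.33 in the mutant mice and -0.10 to 0.14 in the control mice. All 6 pericyte estimates were positive (median 0.19), with scores of 0.21 to 0.37 in the mutant mice and -0.13 to 0.14 in the control mice.

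The position of some members limits the reading of their values. Cx3cr1, P2ry12, P2ry13, Gpr34, Csf1r and Irf8 (6 of the 37) overlap another protein-coding gene of the table. P2ry12 and P2ry13 lie within Med12l on the other strand, Csf1r overlaps Hmgxb3 and Gpr34 overlaps Cask, both on the other strand. On the same strand, Irf8 (3.68 to 6.01 FPKM) overlaps Gm20388 (16.7 to 20.99 FPKM), and Cx3cr1 overlaps Gorasp1 (6.23 to 7.96 FPKM), Csrnp1 (4.10 to 6.31 FPKM) and Xirp1. Whether reads were assigned by strand is not given in the sources used here, and strand would not separate the genes on the same strand, so that reads of these pairs cannot be told apart with certainty.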

How the data were processed

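The authors extracted RNA from P14 optic nerves, made libraries with a stranded kit that selects polyadenylated RNA, sequenced single ends, aligned reads to GRCm38 with STAR 2.5.1b and estimated gene levels with RSEM 1.2.22, per the labels and the study's methods. The authors deposited a table of 22880 genes with 2 values per sample. The first is a signal per gene, the estimated read number of RSEM divided by a size factor, as deposited. The second is FPKM, which the authors derived from the first by gene length and library total. The fold changes and p-values of the authors' own comparison are in the same table and were not used.

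The test was limma-trend (limma 3.58.1 in R 4.3.3) on log2(FPKM + 0.5) with genotype as the only term, for the 13866 genes that reached an FPKM of 0.5 in 3 or more of the 7 samples, with Benjamini-Hochberg adjustment over them at 0.05. It was tested on simulated data. Differences of the log2 values understate changes of low genes. A count model on recovered reads had been planned and was not run, because 75.0% to 80.6% of the low values were whole reads (within 0.05), which is too few. Reads per library were taken from the step between low values. Library size bounds the counting error only. Replicates differed by more than that error, with median chi-square values per gene of 2.14 to 6.36, and each counted as 1 sample. With 4 mice against 3, an exact permutation test could not give a two-sided p below 0.0571.

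The labels number the mice without saying what a number stands for. Deviations from the group means correlated across genes at 0.168, 0.409 and 0.270 for equal numbers and at -0.353 to 0.205 for unequal ones, so the numbers were taken to pair the mice for a blocked alternative. The other alternatives were the pseudocount, the filter, the scaling of the libraries and leaving out each mouse. Genes overlapping a member were read from GENCODE M21, and promoters and starts from RefSeq.

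The members and all marker lists were chosen with earlier results of these data known, so no test was made over a list. Every member is given, the defining members and those with extreme fold changes with the value in every mouse. Of the other lists, genes past the threshold (at most 5 a list) are named, or the most abundant gene where none passed.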

Additional observations from a re-analysis of the deposited data

Results flagged for a closer look

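In 5 of 56 values examined over the 4 control mice (37 members and 19 list scores), the highest or the lowest mouse lay apart from the other controls by Dixon's test at the 95% level, which chance gives in about 1 in 20 groups. Control 4 was the mouse apart in 3 members, with the highest control value of C1qb (76.4 FPKM), of C1qc (64.69 FPKM) and of Laptm5 (60.12 FPKM). Control 3 had a low value of Gpr34 (6.373 FPKM, against 8.64 to 9.09 FPKM in the other controls). Control 1 had a high score of the proliferation markers (0.444, against -0.211 to -0.110 in the other controls). The 3 mutant mice are too few for this test.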

How the results depend on the processing

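The count of members called lower was 0 under all alternatives, and the count called higher was 0 except with the replicate block (4, namely Olfml3, Csf1r, Spp1 and Mrc1), without mutant 1 (P2ry12) and without mutant 2 (Spp1), so that leaving out 1 mouse gave 0 to 1. The block changed no other call of a member. It takes 3 mice of each genotype as pairs, which the labels do not name, and uses the deviations within them. The reason for its added calls was not tested. Members with estimates near 0 changed sign. With the block these were Sall1 (0.0394) and Cd68 (0.068), and with a pseudocount of 1 Spi1 (-0.000632). Scaling by the median log2 FPKM gave -0.0751 for Spi1, -0.0252 for Irf8, -0.075 for Aif1, -0.0272 for Laptm5, -0.0741 for Tyrobp, -0.000352 for C1qc and -0.0403 for Ctss. Centring on the median log2(FPKM + 0.5) gave -0.0797 for Spi1, -0.0311 for Irf8, -0.0779 for Aif1, -0.0241 for Laptm5, -0.0714 for Tyrobp and -0.0371 for Ctss. The deposited size factors, an alternative chosen after the data had been seen, gave -0.0678 for Spi1, -0.018 for Irf8, -0.0675 for Aif1, -0.0191 for Laptm5, -0.066 for Tyrobp and -0.0322 for Ctss. Leaving out 1 mouse at a time moved Gpr34 between -0.00323 and 0.272, Sall1 between -0.0704 and 0.0394, Spi1 between -0.148 and 0.194, Irf8 between -0.0228 and 0.19, Aif1 between -0.0926 and 0.153, Tyrobp between -0.0536 and 0.119, Cd68 between -0.172 and 0.068, Ctss between -0.0557 and 0.19 and Itgax between -0.156 and 0.0269. A minimum of 1 FPKM removed Itgax and Cst7. Over all genes the calls were 175 higher and 188 lower, 33 and 62 without the filter, 104 to 117 and 259 to 283 with the 3 scalings, 890 and 269 with the block, and 1 to 563 and 4 to 344 without 1 mouse. The planned count tests and TMM scaling were not run.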
